A study of Mus musculus with 6 samples.

Results

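The proteasome genes of the mouse tongue epithelium were described in all 6 libraries of a knockout comparison. Members were the genes whose symbol starts with Psma, Psmb, Psmc, Psmd, Psme, Psmf or Psmg followed by a digit, without the immunoproteasome subunits Psmb8, Psmb9 and Psmb10. This rule took 53 of the 55421 genes in the table and used no measured value. The members comprised 16 subunits of the core particle, 17 subunits of the cap, 4 other activators, 1 inhibitor, 7 assembly chaperones and 8 genes that match by name alone, namely pseudogenes and proteins with other roles. Of these, 43 reached a normalised read count of at least 10 in at least 3 libraries and were tested.

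The proteasome is the main protease of the cytosol and nucleus and degrades proteins that carry ubiquitin chains. Its core particle is a barrel of stacked rings, in which alpha subunits form the outer rings and gate the channel, and beta subunits form the inner rings and hold the proteolytic sites. The cap binds the end of the barrel: its lid removes ubiquitin and its base unfolds the substrate with a ring of ATPases, while other activators such as PA28 can take the place of the cap. In a renewing epithelium such as that of the tongue the proteasome removes cell cycle regulators, and proteins expelled from the endoplasmic reticulum are among its substrates.

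The study asked what loss of Ire1α, a sensor of the unfolded protein response of the endoplasmic reticulum encoded by Ern1, does to the tongue epithelium. The WT group was 3 mice with floxed Ire1α alleles (IRE1F/F), and the KO group was 3 littermates that also carried K14CreERT2 (K14CreERT2 IRE1 F/F). Mice of both groups received tamoxifen on 4 days and were harvested on day 5, so floxed alleles and tamoxifen were shared by all libraries and the Cre transgene was not. The keratin 14 promoter drives this Cre in basal keratinocytes, so the cells above the basal layer, other cell types and the RNA they contribute were not direct targets, and the sources used here give no age or sex.

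Samples of both groups were digested for 10 min at 37 C, a step shared by all libraries. Libraries were made from the peeled mucosa with a 3'-end kit (QuantSeq), which makes 1 tag near the end of each mRNA, so the counts were not divided by gene length. Depth was 4606309 to 6286153 reads per library, of which the members took 22464 to 28459. Ern1 had a normalised read count of 102, 105 and 77.1 for the WT mice, with 78.0, 117 and 123 for the KO mice (each triplet of values follows replicates 1, 2 and 3). The groups overlapped, with a log2 fold change of 0.15 (limma adjusted p = 0.847). The deleted exons are not named in the labels and a 3' tag does not read exons elsewhere in the gene, so these values do not check the genotype and the groups are named as labelled. Markers of tongue epithelium were abundant: 7 genes of suprabasal cells summed to 561189.7 to 780812 in WT and 684757 to 980644 in KO. The 6 genes of basal keratinocytes summed to 24961 to 27040.3 in WT and 35859 to 62780.2 in KO, with the highest sum in KO replicate 1. Krt14 was the largest part of this sum in every library, and the listed genes did not move together. Krt14, Krt5, Itga6 and Itgb4 were higher in every KO library, while the groups overlapped in Col17a1. Krt15 went the other way without overlap, at 4815, 5183 and 6177 for WT, with 3803, 1183 and 2563 for KO. Of the basal genes, limma called Itgb4 alone. DESeq2, which called 3.35% of all genes, gave adjusted p-values of 6.7e-05 for Krt14, 9.0e-05 for Itgb4 and 0.00565 for Krt5. It gave 0.0199 for Krt15, 0.0339 for Itga6 and 0.309 for Col17a1. Of the suprabasal genes limma called none. DESeq2 called Krt6a (adjusted p = 0.00133), Krt16 (0.00653) and Sprr1a (0.0344), all higher in KO, with Krt4, Krt13, Krt84 and Lor at 0.728 or more. Skeletal muscle genes (9 listed, Acta1 at 0) summed to 91.4 to 403 in 5 libraries and to 1997 in KO replicate 1. The 6 fibroblast genes summed to 1362 to 1877 in WT and 213 to 1073 in KO. This was mostly Dcn except in KO replicate 1, where Dcn was 529.8 of 1073. Dcn fell (log2 fold change -2.06, limma adjusted p = 0.0152), while Col1a1, Col1a2 and Col3a1 were highest in KO replicate 1, at 189.6, 235 and 102, and at 21.7 or less in the other libraries. The 7 leukocyte genes summed to 143 to 221 in WT and 127 to 262 in KO. Endothelial, taste bud and salivary gland lists stayed at 61.8 or less, with Prol1 and Smgc at 0. The part of these differences in the results was not tested, and in bulk tissue fewer cells of a type cannot be told apart from less RNA per cell.

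Promoter windows of 5 of the members named below were printed: the catalytic subunits Psmb5 and Psmb6, the ubiquitin receptor Psmd4, and the PA28 pair Psme1 and Psme2. Each window runs from 250 bases before to 50 bases after a transcription start in RefSeq (build GRCm38.p6), 5′ to 3′ on the strand of the gene. Capitals mark the antioxidant response element core TGACNNNGC in Psmb5 and Psmb6, and the interferon response element (2 copies of GAAA with 2 free bases between them), which lies here on the opposite strand, in Psmd4 and Psme1. No capitals stand in the Psme2 window, since it held none of the 4 motifs searched.
Psmb5: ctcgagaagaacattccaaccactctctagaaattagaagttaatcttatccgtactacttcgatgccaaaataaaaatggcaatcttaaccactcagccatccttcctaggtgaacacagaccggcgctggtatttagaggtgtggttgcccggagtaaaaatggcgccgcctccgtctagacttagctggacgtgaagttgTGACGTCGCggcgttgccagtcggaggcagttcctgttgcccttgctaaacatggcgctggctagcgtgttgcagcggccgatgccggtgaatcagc
Psmb6: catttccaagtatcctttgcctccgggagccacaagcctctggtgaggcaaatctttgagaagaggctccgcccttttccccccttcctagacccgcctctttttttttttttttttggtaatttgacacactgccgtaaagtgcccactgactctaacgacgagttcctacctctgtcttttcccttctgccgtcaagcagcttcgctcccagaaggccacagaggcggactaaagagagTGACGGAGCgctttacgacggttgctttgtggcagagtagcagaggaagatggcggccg
Psmd4: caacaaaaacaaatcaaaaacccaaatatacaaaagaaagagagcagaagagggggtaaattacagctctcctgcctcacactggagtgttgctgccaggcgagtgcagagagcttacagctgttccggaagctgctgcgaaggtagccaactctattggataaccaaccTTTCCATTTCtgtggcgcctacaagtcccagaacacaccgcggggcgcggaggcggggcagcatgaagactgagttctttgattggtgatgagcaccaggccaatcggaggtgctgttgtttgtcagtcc
Psme1: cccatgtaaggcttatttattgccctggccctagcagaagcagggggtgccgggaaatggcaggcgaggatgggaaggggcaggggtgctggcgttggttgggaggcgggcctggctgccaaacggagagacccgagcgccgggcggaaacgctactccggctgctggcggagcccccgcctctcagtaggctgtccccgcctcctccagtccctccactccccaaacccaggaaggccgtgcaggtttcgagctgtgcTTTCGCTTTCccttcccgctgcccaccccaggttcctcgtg
Psme2: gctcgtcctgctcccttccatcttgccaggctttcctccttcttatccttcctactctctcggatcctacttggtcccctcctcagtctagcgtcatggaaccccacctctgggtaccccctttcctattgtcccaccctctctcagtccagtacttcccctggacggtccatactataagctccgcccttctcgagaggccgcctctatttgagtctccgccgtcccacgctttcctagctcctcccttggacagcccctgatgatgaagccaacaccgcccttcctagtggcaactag
The Psmb5 window is chr14:54617946-54618245 on the minus strand, and its match begins 47 bases before the start. The Psmb6 window is chr11:70525107-70525406 on the plus strand, with the match beginning 9 bases before it. The Psmd4 window is chr3:95042565-95042864 on the minus strand, with the match beginning 80 bases before the start. The Psme1 window is chr14:55578244-55578543 on the plus strand, with the match beginning 9 bases after the start, and the Psme2 window is chr14:55591052-55591351 on the minus strand.

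RefSeq windows were matched by symbol for 40 members (44 windows), and 4 motifs were searched on both strands. TGACNNNGC, the core of the element bound by NRF1 and NRF2, stood in 6 of the 44 member windows (13.6%) and in 12.4% of all 32851 windows. Its members were Psmb5, Psmb6, Psmc6, Psmd9, Psmd12 and Psme4. The interferon response element stood in 5 member windows (11.4%), those of Psmb3, Psmd4, Psmd9, Psme1 and Psmg4, and in 3.44% of all windows. CCAAT, the letters bound by the NF-Y complex, stood in 34.1% of member windows and 37.4% of all windows, and by gene in 7 of 12 core members and 4 of 14 cap members, including 3 copies in the Psmd4 window. TTCNNNGAA, the palindrome of STAT factors, stood in the windows of Psmd2 and Psmg1 (4.55%) and in 8.30% of all windows. The motifs differ in letters and were counted separately. A match describes the letters of a window and was not tested as a binding site.

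No proteasome member changed by the main test. With limma over 10987 genes, 0 of the 43 tested members passed an adjusted p of 0.05, beside 198 genes in all (1.80%, 1.22% higher and 0.583% lower in KO). At an unadjusted p under 0.05 there were 5 members, 4 higher and 1 lower in KO (11.6% of the tested members), beside 13.5% of all genes (6.68% higher and 6.84% lower). edgeR on the recovered reads called 0 members (1.73% of all genes, 0.592% lower), and DESeq2 called 1, Psme2, lower in KO (3.35% of all genes, 1.38% lower). The groups did not overlap in 11 of the 43 members (25.6%), beside 19.1% of all genes: Psmb7, Psmc2, Psmd1, Psmd2, Psmd3, Psmd6, Psmd11, Psme3 and Psme4 lay higher in every KO library, and Psmd8 and Psme2 lower. The log2 fold change of KO over WT ranged from -0.80 in Psme2 to 0.49 in Psmd4, with a median of 0.09 over the members and -0.01 over all genes tested. The smallest limma adjusted p was 0.0853, in Psme2.

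**Figure D1:**
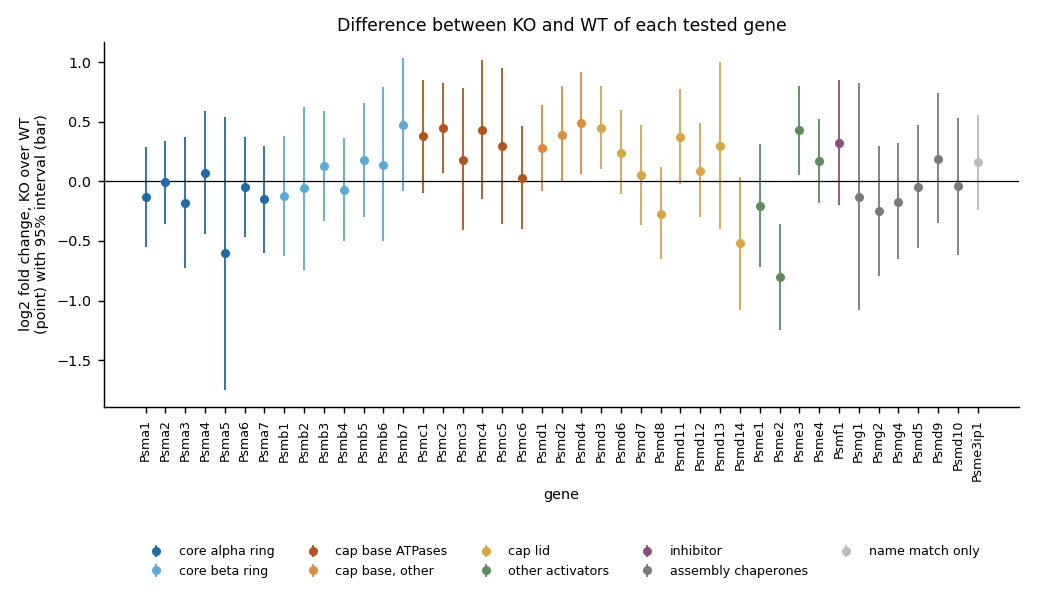
Log2 fold change of KO over WT (vertical axis) for each tested member (horizontal axis, coloured by role), as points with bars for the 95% interval from the limma standard error (n = 3 mice per group). Psme2 has the lowest point at -0.80 and Psmd4 the highest at 0.49, and the cap base lies above 0 in 9 of 9 members.

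No alpha subunit of the core passed the test. Of the 7 tested alpha genes, 6 had a log2 fold change below 0, with a median of -0.13, and the groups overlapped in all 7. The direction rested on WT replicate 3: without it 4 of 7 lay above 0, with a median of 0.04. Their mean WT levels ran from a normalised read count of 53.2 for Psma3 to 2363 for Psma7, and Psma2 at 984, 1031 and 1123 in the WT mice, against 1093, 1016 and 999.7 in the KO mice was the steadiest of the ring, with a within-group log2 SD of 0.08. Psma7 was at 1895, 2134 and 3061 across WT, against 2013, 2079 and 2169 across KO, so WT replicate 3 stood above the other libraries. Psma4 was at 225, 304 and 415 for WT, with 359.7, 275 and 335 for KO, which overlapped fully (log2 fold change 0.07, SE 0.23, limma adjusted p = 0.931). Psma6 was at 864, 949 and 1309 for WT, with 949, 999 and 1016 for KO, and Psma1 at 221, 228 and 199.8 for WT, with 173, 243 and 183 for KO. Psma3, at 48.1, 54.1 and 57.5 for WT, with 35.8, 54.3 and 52.4 for KO, was the lowest of the tested alpha genes in WT replicates 1 and 2. In these 3 genes too the groups overlapped, with log2 fold changes of -0.05, -0.13 and -0.18.

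Psma5 had the widest spread of all members. Its normalised read count was 93.3, 61.1 and 31.3 in the WT mice, against 20.6, 86.2 and 27.6 in the KO mice. WT replicates 1 and 2 and KO replicate 2 were high and the other 3 libraries low, a division that crosses the genotypes. The means were 61.9 ± 31.0 (SD, n = 3) in WT and 44.8 ± 36.0 (SD, n = 3) in KO. The log2 fold change was -0.60 with a 95% interval of -1.75 to 0.54 (limma adjusted p = 0.680), and the within-group log2 SD was 0.93, beside a median of 0.24 over members.

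Of the 7 tested beta subunits, 4 had a log2 fold change above 0, with a median of 0.13, and 0 passed. Psmb5 carries the chymotrypsin-like site of the core, and its promoter window above holds a TGACNNNGC match. It was at 143, 109 and 115 across WT, against 148, 164 and 109 across KO. The highest values were in KO replicates 1 and 2 and the groups overlapped. The means were 122 ± 18.3 (SD, n = 3) and 140.3 ± 28.4 (SD, n = 3), with a log2 fold change of 0.18 and an interval of -0.30 to 0.66 (limma adjusted p = 0.789).

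Psmb6 carries the caspase-like site. It was at 600.3, 749.6 and 1491 for WT, with 1008, 854 and 1047 for KO. WT replicate 3 was the highest of the 6 libraries and the other 2 WT libraries were the lowest, so the WT values spanned the KO values. The log2 fold change was 0.14 with an interval of -0.50 to 0.79 (limma adjusted p = 0.888). Psmb1, a beta subunit without a catalytic site, was at 733, 802 and 1343 in the WT mice, against 923, 815 and 815 in the KO mice, again highest in WT replicate 3 (log2 fold change -0.12, limma adjusted p = 0.876).

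The other beta subunits without a catalytic site overlapped between groups as well. Psmb4 was at 888, 1001 and 1353 for WT, with 1131, 955 and 961 for KO, and Psmb3 at 454, 509 and 616 for WT, with 746, 495 and 509 for KO. Psmb2 was at 122, 145 and 69.2 for WT, with 78.0, 143 and 96.3 for KO. WT replicate 3 was the highest library of Psmb4, KO replicate 1 that of Psmb3, and WT replicate 3 the lowest of Psmb2. Their log2 fold changes were -0.07, 0.13 and -0.06.

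Psmb7 carries the trypsin-like site and was the core member with the smallest limma p. It was at 33.9, 37.5 and 27.4 across WT, against 53.1, 42.2 and 42.9 across KO. All KO libraries lay above all WT libraries, the 1 core member without overlap. The means were 33.0 ± 5.12 (SD, n = 3) and 46.1 ± 6.09 (SD, n = 3), with a log2 fold change of 0.47 and an interval of -0.08 to 1.03 (limma adjusted p = 0.461). The 3' end of Psmb7 overlaps that of Nek6 on the opposite strand in GENCODE M21, and the sources used here do not give the strand setting of the counting, so reads of these genes may not be separated.

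**Figure D2:**
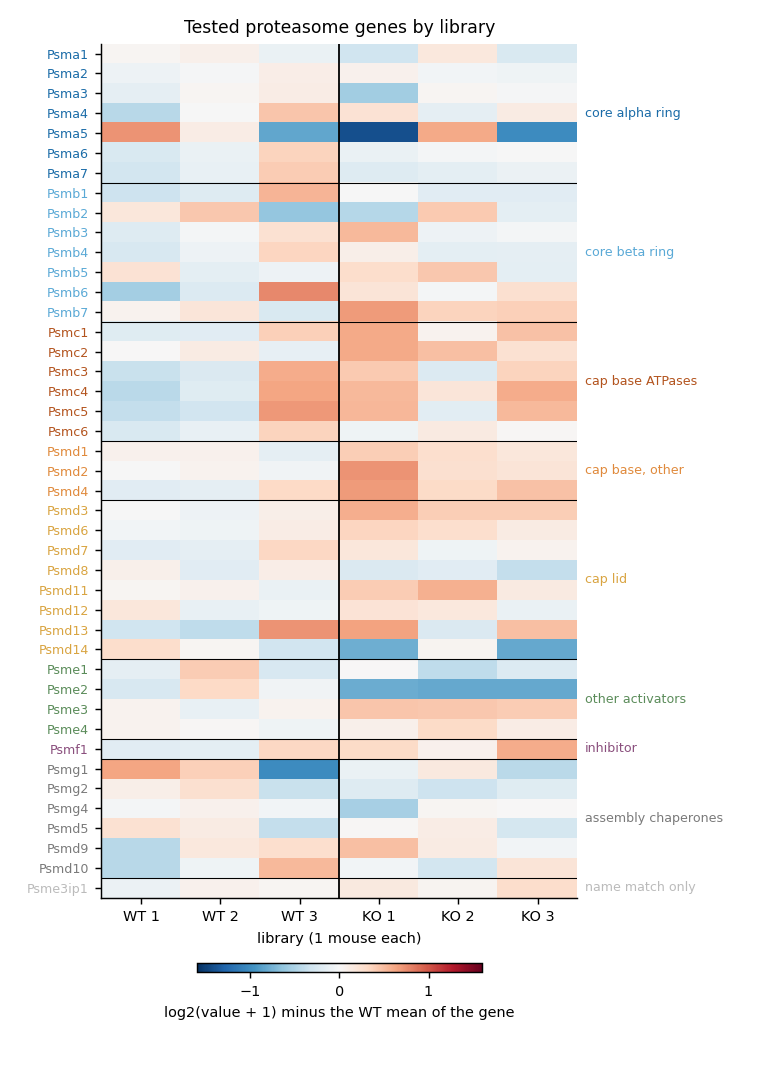
Heat map of the 43 tested members (rows, by role) in the 6 libraries (columns, 1 mouse each). Colour gives log2(value + 1) minus the mean of the 3 WT libraries of the gene: Psma5 and Psmd14 are low in KO replicates 1 and 3, while Psmc3, Psmc5 and Psmd13 are high in WT replicate 3 and in KO replicates 1 and 3.

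Most cap members lay above 0 and most core members near or below it, but no cap member passed the test and the difference between cap and core was not tested. Of the 17 cap members, 15 had a log2 fold change above 0, beside 49.1% of all genes, and their median was 0.30 (14 of 17 and 0.26 with libraries scaled to equal totals). Of the 14 core members, 5 lay above 0, with a median of -0.06, so the core median was 0.35 lower than the cap median on the log2 scale. In 7 of the 17 cap members the groups did not overlap, 6 with KO higher (9.84% of all genes) and 1 with KO lower (9.25% of all genes). At an unadjusted p under 0.05 there were 3 cap members, all higher in KO (17.6% of the cap, beside 6.68% of all genes higher). There were 0 of the 14 core members, beside 13.5% of all genes in either direction. As a mean over members relative to WT, the cap level was -0.10, -0.11 and 0.21 for the WT mice, with 0.34, 0.14 and 0.17 for the KO mice, in log2 units. WT replicate 3 lay among the KO libraries. The core level was -0.09, -0.01 and 0.10 for the WT mice, with -0.07, 0.08 and -0.09 for the KO mice, which overlapped. Cap minus core was -0.01, -0.10 and 0.11 for the WT mice, with 0.41, 0.05 and 0.27 for the KO mice, where KO replicate 2 lay below WT replicate 3.

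The directions of cap and core depended on which libraries were set against each other. Library names in the labels are numbers in WT replicates 1 and 2 and KO replicate 1, and letters in the other 3. KO replicate 1 was thus the only KO library among the numbered, and WT replicate 3 the only WT library among the lettered. For a gene whose groups did not overlap, both differences have the same sign by construction, here and below. Among the numbered libraries 15 of 17 cap members were higher in KO, with a median of 0.54, while among the lettered libraries 8 of 17 were, with a median of -0.08. The core turned in the same way, with 10 of 14 members higher in KO and a median of 0.18 among the numbered, and 5 of 14 and -0.23 among the lettered libraries. The alpha ring had medians of 0.0015 and -0.16, and the beta ring 0.27 and -0.30. Core minus cap was -0.36 among the numbered and -0.15 among the lettered libraries. Without KO replicate 1, which also had the highest basal keratinocyte and muscle sums, core minus cap was -0.22 and 14 of 17 cap members lay above 0. Without WT replicate 3 the core median was 0.11, with 10 of 14 core members above 0, and the median over all members was 0.21.

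**Figure D3:**
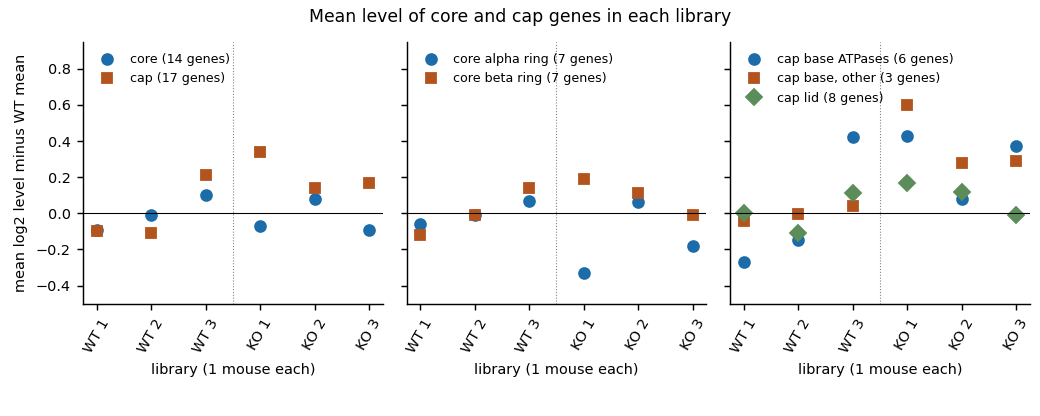
Mean log2 level of the 14 core and 17 cap members in each library, relative to the mean of the 3 WT libraries. Cap levels are 0.34, 0.14 and 0.17 for KO and -0.10, -0.11 and 0.21 for WT, so WT replicate 3 sits among the KO points.

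Within the cap, the base was higher in KO in 9 of 9 members, with a median of 0.38, and 0 passed (8 of 9, with Psmc6 below 0, under equal totals, with the library name style as a covariate, and when replicate 1 or 2 of WT, or replicate 2 of KO, was left out). The base median was 0.23 when KO replicate 1 was left out. Among the lettered libraries 4 of 9 base members were higher in KO. The 6 ATPases thread the substrate into the core, and their log2 fold changes ran from 0.03 in Psmc6 to 0.45 in Psmc2. Psmc2 was at 483, 524 and 438 for WT, with 732, 670.5 and 569.9 for KO. All KO libraries lay above all WT libraries. The means were 482 ± 43.1 (SD, n = 3) and 658 ± 82.0 (SD, n = 3), with a 95% interval of 0.07 to 0.82 and a limma adjusted p of 0.274. The difference was 0.54 among the numbered and 0.50 among the lettered libraries.

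Psmc5 and Psmc3 did not follow the genotype in every library. Psmc5 was at 426, 449 and 897 in the WT mice, against 802, 496 and 799 in the KO mice. Psmc3 was at 732, 796 and 1413 across WT, against 1254, 807 and 1197 across KO, and its 3' end overlaps Slc39a13 on the opposite strand. Both genes were high in WT replicate 3 and in KO replicates 1 and 3, and low in the other 3 libraries. For Psmc5 the difference was 0.87 among the numbered and -0.51 among the lettered libraries, and for Psmc3 it was 0.71 and -0.52. Psmc6 was at 354, 386 and 539 for WT, with 399.8, 465 and 426 for KO, which overlapped (log2 fold change 0.03, SE 0.19, limma adjusted p = 0.963). Psmc1 was at 823, 829.8 and 1225 for WT, with 1433, 984 and 1299 for KO, and Psmc4 at 219.6, 258 and 459.7 for WT, with 424, 339 and 449.8 for KO. In both, WT replicates 1 and 2 were the lowest libraries, while WT replicate 3 lay among the KO values of Psmc1 and above those of Psmc4, with log2 fold changes of 0.38 (limma adjusted p = 0.504) and 0.43 (limma adjusted p = 0.533). As a group, the ATPases had a median difference of 0.75 among the numbered and -0.26 among the lettered libraries.

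The 3 base members outside the ATPase ring had log2 fold changes of 0.28 to 0.49. Psmd4, a receptor that binds ubiquitin chains, had the highest log2 fold change of all members and lies at chr3:95032694-95042614 (GRCm38, GENCODE M21). It was at 1018, 1051 and 1448 in the WT mice, against 1849, 1436 and 1603 in the KO mice. WT replicate 3 lay just above KO replicate 2, so the groups overlapped. The means were 1172 ± 239.6 (SD, n = 3) and 1629 ± 208 (SD, n = 3), 1.40-fold higher in KO by the fit, with an interval of 0.06 to 0.92 on the log2 scale. The limma adjusted p was 0.299 (0.0302 unadjusted). The difference was 0.84 among the numbered and 0.07 among the lettered libraries.

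Psmd1 and Psmd2 are the large scaffold subunits of the base. Psmd2 was at 791, 826 and 767 across WT, against 1304, 952 and 914 across KO, with a log2 fold change of 0.39 (SE 0.18, limma adjusted p = 0.384). Psmd1 was at 792, 789 and 682 for WT, with 991, 903 and 856 for KO, with a log2 fold change of 0.28 (SE 0.16, limma adjusted p = 0.505). In both genes every KO library lay above every WT library. The 3' end of Psmd1 overlaps the predicted gene Gm21972 on the same strand.

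The lid was mixed, with 6 of 8 members above 0 and a median of 0.17. Psmd3, a scaffold subunit of the lid, had the smallest limma p of the cap. It was at 775, 736 and 832 in the WT mice, against 1163, 1023 and 1022 in the KO mice. The KO libraries lay above the WT libraries. The means were 781 ± 48.0 (SD, n = 3) and 1069 ± 81.0 (SD, n = 3), 1.37-fold higher in KO by the fit, with a log2 fold change of 0.45 and an interval of 0.10 to 0.80. The limma adjusted p was 0.225 (0.0168 unadjusted). The difference was 0.62 among the numbered and 0.30 among the lettered libraries. Psmd11, another lid scaffold, was at 244, 251 and 221 across WT, against 315, 354 and 264 across KO, a log2 fold change of 0.37 (limma adjusted p = 0.400). Psmd6, a lid scaffold too, was at 395, 389 and 444 for WT, with 517, 491 and 446 for KO. In Psmd11 and Psmd6 the KO libraries lay above the WT libraries, in Psmd6 by the narrow gap between 444 and 446. Psmd7, the inactive partner of Psmd14, was at 1267, 1303 and 1809 for WT, with 1632, 1369 and 1493 for KO, and Psmd12 at 309, 250.4 and 259.9 for WT, with 316, 305 and 253 for KO. Both overlapped, with log2 fold changes of 0.05 and 0.09.

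Psmd14 and Psmd8 were the cap members below 0. Psmd14 is the deubiquitinase of the lid, which removes ubiquitin chains as the substrate enters. It was at 629, 527 and 417 for WT, with 300.1, 533 and 292 for KO. KO replicates 1 and 3 were the lowest of the 6 libraries, and KO replicate 2 lay within the WT values. The means were 524 ± 106 (SD, n = 3) and 375 ± 137 (SD, n = 3), with a log2 fold change of -0.52 and an interval of -1.08 to 0.04 (limma adjusted p = 0.414). Psmd8, a lid subunit, had the highest mean level of the cap, at 3152, 2638 and 3206 in the WT mice, against 2538, 2634 and 2287 in the KO mice, a log2 fold change of -0.27 (SE 0.17, limma adjusted p = 0.570). The groups of Psmd8 did not overlap, by the narrow gap between WT replicate 2 and KO replicate 2. Psmd13, a further lid subunit, was at 633, 592 and 1299 across WT, against 1232, 672 and 1101 across KO, and its difference was 1.01 among the numbered and -0.59 among the lettered libraries.

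Among the other activators, Psme2 had the smallest limma p of all members. Psme1 and Psme2 encode the alpha and beta subunits of PA28, an interferon-inducible activator that favours the making of peptides for antigen presentation. Psme2 lies at chr14:55587441-55591113 on the minus strand (GRCm38, GENCODE M21). It was at 152, 227 and 175 for WT, with 105, 103 and 103 for KO. Every KO library lay below every WT library, and the 3 KO values were close together. The means were 185 ± 38.5 (SD, n = 3) and 104 ± 1.14 (SD, n = 3), so WT was 1.75-fold higher by the fit. The log2 fold change was -0.80 with an interval of -1.25 to -0.36. The limma adjusted p was 0.0853 (0.00219 unadjusted), edgeR gave an adjusted p of 0.0725, and DESeq2 gave 0.0437, so the call rests on the tool. Over the fits that leave out 1 library, the log2 fold change ran from -0.93 to -0.65 and the limma adjusted p from 0.0939 to 0.294, the last without WT replicate 2. The difference was -0.81 among the numbered and -0.76 among the lettered libraries. The last 300 bases of annotated Psme2 transcripts share 50-base stretches with Gm7928 and with Psme2b, and Psme2b was listed at 0 in all libraries.

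The partner subunit Psme1 was at 89.5, 131 and 82.3 in the WT mice, against 99.7, 74.1 and 84.8 in the KO mice. The groups overlapped, with WT replicate 2 the highest library as it was for Psme2. The means were 101 ± 26.2 (SD, n = 3) and 86.2 ± 12.8 (SD, n = 3), with a log2 fold change of -0.21 and an interval of -0.72 to 0.31 (limma adjusted p = 0.782). The difference between the fold changes of Psme1 and Psme2 was not tested. Psme1 overlaps Emc9 at its 3' end on the opposite strand.

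The nuclear activators lay on the other side of 0. Psme3 encodes PA28γ, which activates the core without ATP in the nucleus. It was at 158, 139 and 158 across WT, against 206, 204 and 201 across KO. All KO libraries lay above all WT libraries. The means were 152 ± 11.2 (SD, n = 3) and 204 ± 2.43 (SD, n = 3), with a log2 fold change of 0.43, an interval of 0.05 to 0.80 and a limma adjusted p of 0.298 (0.0299 unadjusted). The difference was 0.47 among the numbered and 0.36 among the lettered libraries. Psme4 encodes PA200, a large nuclear activator, and was at 688, 668 and 631 for WT, with 702, 819 and 719 for KO, a log2 fold change of 0.17 (limma adjusted p = 0.712).

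**Figure D4:**
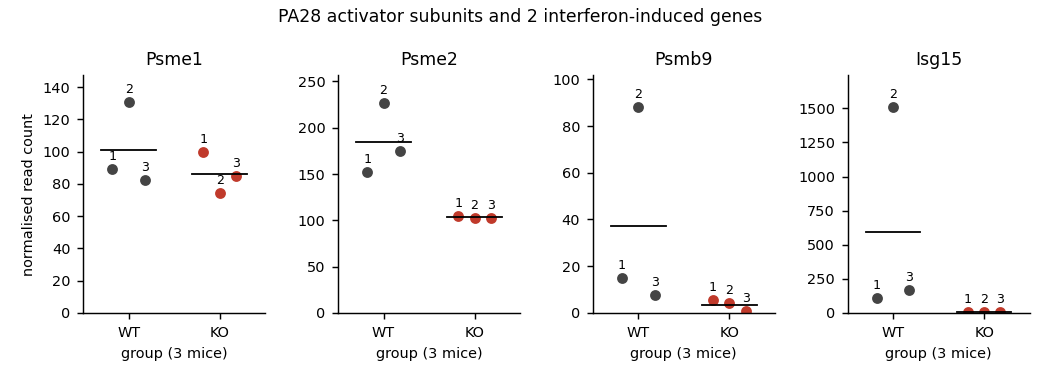
Normalised read count of Psme1, Psme2, Psmb9 and Isg15 in each library (points, numbered by replicate) with the group mean (lines), on separate linear axes from 0. Psme2 is at 105, 103 and 103 in KO and at 152, 227 and 175 in WT, and WT replicate 2 is the highest point in each of the 4 panels.

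Of the pathway genes, the 3 called by the test were all in the interferon list, and WT replicate 2 was their highest library. Isg15, an interferon-induced ubiquitin-like protein, was at 106, 1508 and 166 in the WT mice, against 6.50, 8.62 and 4.76 in the KO mice. It fell with a log2 fold change of -5.33 (limma adjusted p = 0.00737). Of the 10 interferon genes listed, 7 were tested and 3 fell (Isg15, Irf7 and Oasl2, beside 0.583% of all genes called lower), and their median was -1.56. Isg15 stayed past the threshold when any 1 library was left out, with a highest limma adjusted p of 0.0367. Irf7 did not without KO replicate 1 (limma adjusted p = 0.0688), KO replicate 3 (0.0571), WT replicate 2 (0.0697) or WT replicate 3 (0.0506), and Oasl2 did not without KO replicate 1 (0.0605) or KO replicate 3 (0.0697). Irf1, a factor known to act on immunoproteasome genes, was at 20.7, 74.2 and 27.4 across WT, against 11.9, 13.8 and 8.58 across KO, a log2 fold change of -1.56 (limma adjusted p = 0.141, DESeq2 adjusted p = 0.0249). Psmb9, an immunoproteasome subunit, was at 15.1, 88.1 and 7.84 for WT, with 5.42, 4.31 and 0.953 for KO, too low for the test here. The authors' deposited table lists Psmb9 with a log2 fold change of -3.40 and an adjusted p of 0.00299, and lists 0 members among its 341 genes. Psmb8 and Psmb10 were listed at 0 in all libraries. WT replicate 2 had the highest value of Psme1, Psme2, Psmb9, Isg15 and Irf1. All of these but Psmb9, which was not tested, were also read without that library. The log2 fold change was then -0.65 for Psme2, -0.0042 for Psme1 (limma adjusted p = 0.997), -4.17 for Isg15 (limma adjusted p = 0.00410) and -1.02 for Irf1 (limma adjusted p = 0.413).

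The inhibitor Psmf1 (PI31) binds the core and was at 59.4, 60.2 and 84.9 in the WT mice, against 83.4, 70.7 and 102 in the KO mice. The groups overlapped through WT replicate 3. The means were 68.2 ± 14.5 (SD, n = 3) and 85.4 ± 15.7 (SD, n = 3), with a log2 fold change of 0.32 and an interval of -0.20 to 0.85 (limma adjusted p = 0.616).

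Assembly chaperones hold subunits until the rings close. Of the 6 tested, 5 had a log2 fold change below 0, with a median of -0.09, and the groups overlapped in all 6. Psmg2, which pairs with Psmg1 to build the alpha ring, was at 53.7, 60.2 and 39.2 across WT, against 43.3, 39.6 and 43.8 across KO, a log2 fold change of -0.25 (SE 0.25, limma adjusted p = 0.737). Psmd9, a chaperone of the base, was at 68.8, 106 and 114 for WT, with 132, 103 and 91.5 for KO, a log2 fold change of 0.19 (limma adjusted p = 0.801). KO replicate 1 was the highest library of Psmd9 and WT replicate 1 the lowest. The other tested chaperones, Psmg1, Psmg4, Psmd5 and Psmd10, had log2 fold changes of -0.13, -0.17, -0.05 and -0.04.

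The members below the filter were Psmg3, listed at 0 in every library, the testis alpha subunit Psma8 (0.942 in WT replicate 1 and 0 elsewhere), the thymus beta subunit Psmb11 (1.08 to 4.31), and 7 genes that match by name alone. A value of 0 allows up to 3 reads, which is 2.59 to 3.92 in normalised units across libraries, for counting error only. The 7 were Psma5-ps, Psmb5-ps, Psmb6-ps, Psmb6-ps2, Psmb7-ps2, Psme2b and the recombination factor Psmc3ip (1.31 to 9.48). Psme3ip1, which binds PA28γ, was the tested gene of this kind, at 113, 126 and 123 in the WT mice, against 134, 124 and 147 in the KO mice, a log2 fold change of 0.16 (limma adjusted p = 0.774).

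Other genes of the pathway were read from a list of 53 symbols, of which 49 were in the table and 42 were tested. By limma none was called higher in KO, and 3 were called lower, the interferon genes above. DESeq2 also called Uba1 higher and Irf1 lower, and gave no adjusted p for Oasl2. The subunits and assembly factors with other names had a median log2 fold change of -0.19. Adrm1, a ubiquitin receptor of the base, was at 155, 193 and 221 across WT, against 229, 189.6 and 229.7 across KO (0.20, limma adjusted p = 0.729). Pomp, the chaperone that closes the core, was at 1515, 1898 and 3940.2 for WT, with 2111, 1406 and 2624 for KO (-0.18, limma adjusted p = 0.877), highest in WT replicate 3 as Psmb6 and Psma7 were. Sem1, a small lid subunit, was at 680.4, 593 and 223 in the WT mice, against 219, 669 and 200.1 in the KO mice (-0.54, limma adjusted p = 0.701), with the same 3 libraries low as for Psma5.

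Among the factors that act on subunit genes, Nfe2l1 (NRF1) was at 349.6, 367 and 243 across WT, against 353, 287 and 281 across KO, a log2 fold change of -0.04 (limma adjusted p = 0.954). Nfe2l2 (NRF2) was at 2479, 2024 and 2050.4 for WT, with 2510.3, 2109.7 and 2518 for KO (0.12, limma adjusted p = 0.827). In both the groups overlapped. Nfyb, a subunit of NF-Y, was at 82.9, 108 and 123 in the WT mice, against 209, 153 and 160.1 in the KO mice, without overlap (0.73, limma adjusted p = 0.141).

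The machinery that tags and unfolds substrates acts before the proteasome. The 5 tested unfolding and shuttling genes had a median log2 fold change of 0.28. Uba1, the enzyme that activates ubiquitin, was at 1875, 1794 and 1986 across WT, against 3215, 2559.6 and 2902 across KO. The groups did not overlap, as in 9.84% of all genes with KO higher. The log2 fold change of Uba1 was 0.61, with a limma adjusted p of 0.121 and a DESeq2 adjusted p of 0.0389. The 4 tested ubiquitin genes, Uba1 among them, had a median of 0.35. Of these Rps27a alone lay below 0, with overlap (-0.72, limma adjusted p = 0.239). Nploc4, a partner of the unfoldase Vcp, had a log2 fold change of 0.54 (limma adjusted p = 0.247). Faf1, of the same list, was lower in every KO library (-0.22, limma adjusted p = 0.603). The 15 receptors, deubiquitinases and partners at the cap had a median of 0.02. Their smallest limma adjusted p was 0.359 for Rad23b (0.37), while Zfand2a was lower in every KO library (-0.69, limma adjusted p = 0.364).

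The spread of the members between replicates was set beside that of all genes tested. The median within-group log2 SD was 0.24 over the 43 tested members and 0.31 over all genes tested. Among genes with a mean of at least 100 it was 0.24 for both the 34 members and the 4850 genes. The members lay higher within that range, with a median mean value of 607 beside 267, so the sets were not matched by level. The lowest library was WT replicate 1 for 19 of 43 members (44.2%, beside 17.4% of all genes). The highest was WT replicate 3 for 16 (37.2%, beside 19.8% of all genes) and KO replicate 1 for 12 (27.9%, beside 21.3%). WT replicate 3 was the highest library of 8 of 14 core members (57.1%, beside 19.8% of all genes), and WT replicate 1 was the lowest of 8 (57.1%, beside 17.4%). Members took 0.396%, 0.469% and 0.488% of reads in WT and 0.492%, 0.453% and 0.447% in KO. Mitochondrially encoded genes took 7.93%, 7.20% and 5.75% in WT and 4.94%, 7.35% and 7.14% in KO, lowest in the 2 libraries where the members' share was highest. The part of this in the members' values was not tested.

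Some members share sequence with other genes at an annotated 3' end, which need not be the end that the kit reads. The last 300 bases of every annotated transcript of a member were searched, on both strands, for runs of 50 bases shared with other annotated genes. Such a run was found for Psmb3 (5), Psma3 (4), Psma4, Psma5, Psmc1, Psmd11, Psme1 and Psme2 (2 each), and Psmb1, Psmb5, Psmb7, Psmc3, Psmc6, Psmd1, Psmd2, Psmd13 and Psme3ip1 (1 each). For Psmb7, Psmc3 and Psmd1 the other gene was the neighbour that overlaps at the same locus. For Psma7 (47), Psmd3 (63), Psmd9 (30) and the untested Psmb11 (150) such runs were found in many other genes. How the authors' counting treated such reads is not stated, so the values of these members are uncertain to that extent.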

How the data were processed

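Tongue epithelium of 6 mice was measured, 3 per group, with groups taken from the sample titles. One table deposited by the authors holds a normalised read count (a linear signal, per the file headers) for 55421 genes and 6 libraries. The submitters' processing notes name FastQC, STAR, featureCounts and DESeq2. The sources used here do not give versions, build, annotation or strand setting. A second deposited table covers 341 genes called by the authors, with log2 fold changes, a score (the Wald statistic) and p-values, per the file headers. Every value was a whole multiple of what 1 read was worth (100% whole), which gave back the reads.

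The groups were compared on log2(value + 1) in limma 3.58.1 (R 4.3.3) with an intensity trend, over 10987 genes with at least 10 in at least 3 libraries. P-values are two-sided, Benjamini-Hochberg adjusted over all genes, with a threshold of 0.05. Fold changes understate those of low genes. The 95% intervals come from the limma SE. edgeR 4.0.16 (quasi-likelihood), DESeq2 1.42.0, other scalings, filters and pseudocounts, a replicate block and the style of the library names were alternatives. Scripts were tested on simulated counts. With 3 against 3 mice an exact permutation test cannot go below 0.1, so none was run.

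Members and lists were chosen with earlier results of these data known. The named members were those called by any tool, the highest, lowest and smallest p of each role, and Psmb5, Psmb6, Psmb7, Psmd4, Psmd14, Psme1, Psme2 and Psmf1. Other members, and Irf1 and Sem1 of the pathway, are given beyond that rule, with their values seen. Gene positions and overlaps are from GENCODE M21 (GRCm38), matched by gene ID.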

Additional observations from a re-analysis of the deposited data

How the results depend on the processing

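Of the 19 members named by rule, 339 of 340 pairs of member and alternative fit kept their side of the threshold, and the exception was Psme2, called by DESeq2, where the log2 fold change was -0.83. DESeq2 called 1 member and 368 genes in all, beside 0 and 198 in the main analysis, and the library name style as a covariate left 82 genes, of which 0 were members. Leaving out 1 library gave 68 to 186 genes called and 0 members, a median of members of 0.03 to 0.21 (0.21 without WT replicate 3) and a core minus cap median of -0.43 to -0.22. The cause was not tested, though fewer samples give fewer calls by construction. The sign of Psma4, Psmb1, Psmb6, Psmc6 or Psmd9 turned in 11 pairs. The core minus cap median was -0.28 with the trend on GC content removed, an alternative chosen after seeing the data. The replicate block gave 178 genes, 0 members and the same medians (0.09 and -0.35). The deviations of same-numbered mice from their group means had correlations of -0.25, 0.03 and 0.28, beside -0.4 to 0.41 for differently numbered mice. With 3 mice per group these values cannot decide whether the numbers pair the samples. Precision is limited by 3 mice per group.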
